A study of Mus musculus with 12 samples.

Results

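The 10 genes H2-K1, H2-D1, B2m, Tap1, Tap2, Tapbp, H2-Aa, H2-Ab1, H2-Eb1 and Cd74, which encode the main parts of the class I and class II antigen presentation machinery, were taken by name from the 35999 genes of the deposited table. All 10 were found. They were measured by RNA-seq in LSK cells, the bone marrow fraction without lineage markers that carries Sca-1 and KIT and holds the hematopoietic stem cells and early progenitors, from 6 WT mice and 6 mice labelled Fancg KO (Fancg-/-), with 1 library per mouse. The Fancg-/- line was a gift from another laboratory, the labels name no treatment, and age, sex and strain are not given in the sources used here. Marrow was depleted of mature cells, stained with a lineage cocktail and antibodies to CD117 and Sca-1 and sorted by FACS. Fancg encodes a subunit of the Fanconi anemia core complex, which acts in the repair of DNA interstrand crosslinks. The comparison of KO with WT asks whether loss of this pathway goes with a different level of presentation genes in stem and progenitor cells.

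MHC class I molecules present peptides from the cytosol to CD8 T cells on almost every nucleated cell. Their heavy chains, such as the products of H2-K1 and H2-D1, pair with beta-2 microglobulin, the product of B2m, and receive peptides that the TAP1 and TAP2 transporter carries into the endoplasmic reticulum, with tapasin, the product of Tapbp, as the bridge between them. MHC class II molecules present peptides from the endosome to CD4 T cells and are found mostly on dendritic cells, B cells and macrophages. Their alpha and beta chains, here from H2-Aa, H2-Ab1 and H2-Eb1, are held by the invariant chain, the product of Cd74, until a peptide is loaded. NLRC5 is the transactivator of class I genes and CIITA that of class II genes, and both act through a protein platform on the promoter that includes the RFX complex and NF-Y, a factor that binds CCAAT boxes.

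The deposited value, called signal here, is the estimated number of reads after scaling by 1 size factor per library, and it is not corrected for gene length. Each library held between approximately 1235110 and 2471413 reads, and 1 read was worth between 0.677 and 1.61 of signal. Fancg itself had a signal of 10.3 ± 6.96 (SD, n = 6) under the WT label and 8.53 ± 4.18 (SD, n = 6) under the KO label (p = 0.636 by an exact permutation test, two-sided), which did not separate the labels at between 3.16 and 22.3 reads per library, so KO below means a library labelled KO. Of the 10 LSK markers checked, 9 had a mean signal of at least 10, among them Kit with 283 to 435 and Ly6a, which encodes Sca-1, with 4.84 to 17.4 over the 12 libraries. Flt3 was the one tested LSK marker with an unadjusted limma p under 0.05, with a log2 fold change of -0.51 (adjusted p = 0.9996). Neutrophil markers summed to at most 5.71 in any library. WT replicate 3 and KO replicate 7 stood apart with a summed signal of 4 Y-linked genes of 26.6 and 49.7, against 189 to 435 in the other 10 libraries.

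Among the members, B2m lies on chromosome 2, and the other genes placed here lie on chromosome 17. In GENCODE annotation of GRCm38, H2-K1 is at chr17:33996017-34000347 on the minus strand, H2-D1 at chr17:35262730-35267499, B2m at chr2:122147686-122153083, Tap1 at chr17:34187553-34197225, Tap2 at chr17:34203527-34216321 and Tapbp at chr17:33915899-33929292. The class II chains are at chr17:34282744-34287823 on the minus strand for H2-Aa, at chr17:34257689-34269419 for H2-Ab1 and at chr17:34305867-34316674 for H2-Eb1. This stretch of chromosome 17 is the mouse MHC, also called H-2.

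Promoter sequences are shown because the class I and class II genes are controlled through short elements that their promoters share. RefSeq promoters of GRCm38.p6, from 250 bases before to 50 bases after the start, were found for 7 of the 10 members, and not for Tap2, H2-Ab1 and Cd74. Of the 2 starts listed for H2-K1, the downstream one is used. The 180 bases before the start are given 5′ to 3′ on the strand of the gene, at chr17:34000334-34000513 (minus strand) for H2-K1, chr2:122147507-122147686 (plus strand) for B2m, chr17:34287824-34288003 (minus strand) for H2-Aa and chr17:34305687-34305866 (plus strand) for H2-Eb1. Capitals mark matches, on either strand, to the CCAAT box (CCAAT, or ATTGG on the other strand), to an interferon response element core (GAAANNGAA) and to a kappa B core (GGGATTCCC), and no match overlapped another.
H2-K1: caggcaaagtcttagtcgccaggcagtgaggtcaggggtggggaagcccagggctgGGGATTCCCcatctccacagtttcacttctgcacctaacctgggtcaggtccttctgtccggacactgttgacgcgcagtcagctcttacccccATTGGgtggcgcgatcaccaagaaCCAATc
B2m: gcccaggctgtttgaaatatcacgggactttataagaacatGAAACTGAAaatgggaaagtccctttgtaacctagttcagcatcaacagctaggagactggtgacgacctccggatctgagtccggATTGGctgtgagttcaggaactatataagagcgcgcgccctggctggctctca
H2-Aa: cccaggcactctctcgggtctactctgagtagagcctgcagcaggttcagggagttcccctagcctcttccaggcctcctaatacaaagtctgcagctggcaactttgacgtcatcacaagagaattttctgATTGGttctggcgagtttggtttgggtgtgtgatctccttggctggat
H2-Eb1: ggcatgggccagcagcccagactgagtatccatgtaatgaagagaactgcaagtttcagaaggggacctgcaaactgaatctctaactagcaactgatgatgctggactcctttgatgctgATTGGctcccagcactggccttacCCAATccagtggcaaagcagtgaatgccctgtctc
All 7 promoters held a CCAAT box in either direction, a motif present in 37.4% of the 32851 RefSeq promoters of the same length. The kappa B core, in the spelling GGGATTCCC, was found in H2-K1 and H2-D1, against 0.353% of all promoters. No other spelling of a kappa B site was searched, so the lack of a match does not show that the other members lack such a site. The share is a description and not a test. The interferon response element core, in the spelling GAAANNGAA, was found in B2m, against 8.56%. Only this order of its parts was searched. H2-K1 and H2-D1 both hold tttcacttc, which on the other strand has the same parts in the opposite order and was not counted. The match therefore does not show that B2m alone holds such an element. The promoters of H2-K1 and H2-D1 have 47 bases in a row in common. This run includes the kappa B core, so its matches in H2-K1 and H2-D1 are not independent of each other. These are matches of letters only, and binding was not measured.

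Over transcript length, the members spanned a wide range of levels. B2m had the highest signal per kb of its longest coding transcript, with 976 ± 84.4 (SD, n = 6) in WT, followed by H2-K1 with 332 ± 28.6, and the 12 libraries of these 2 genes overlapped neither with each other nor with any gene below them. H2-D1 (58.1 ± 5.99) and Tap1 (49.7 ± 11.1) came next, and their ranges over the 12 libraries overlapped. Cd74 had 15.8 ± 23.97 per kb in WT, H2-Aa 8.31 ± 7.96, Tapbp 7.89 ± 1.25, H2-Ab1 5.51 ± 4.00, H2-Eb1 2.95 ± 3.00 and Tap2 2.39 ± 0.372 per kb. Each of these 6 overlapped with its neighbours in the order.

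**Figure D1:**
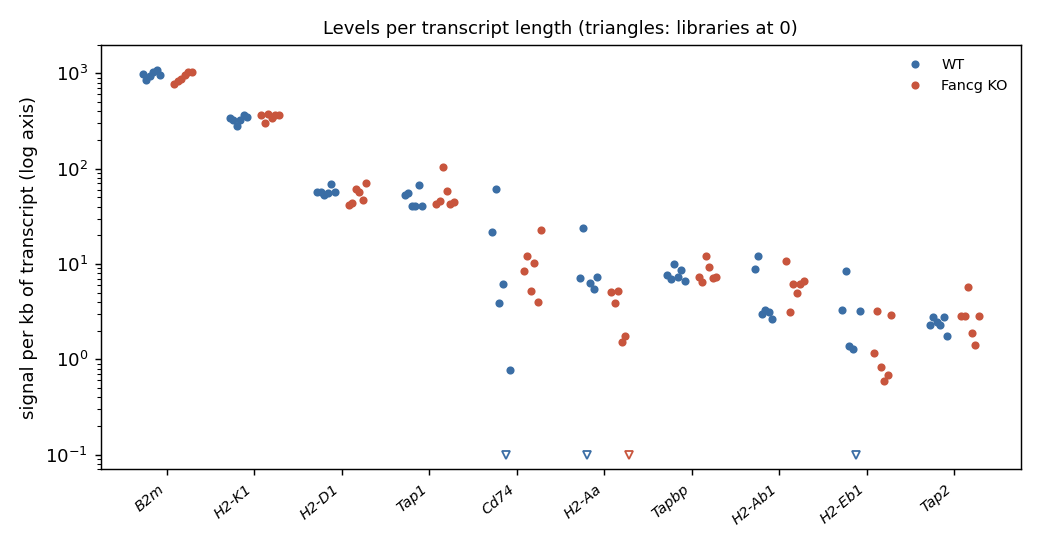
Signal per kb of transcript (vertical log axis) of the 10 members (horizontal axis, ordered by WT mean), with 1 point per library for 6 WT and 6 Fancg KO mice and open triangles for libraries at 0. B2m and H2-K1 stand clear of all other members in both genotypes, while the class II genes spread widely and all but H2-Ab1 reach 0.

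No member passed a test of the difference between KO and WT. Of the 10, 6 had a mean signal of at least 10 and entered the limma fit with all 8887 such genes, and 0 of the 6 passed an adjusted p of 0.05, as did 0% of all genes tested. At an unadjusted p under 0.05 the count was also 0 of 6, where 3.67% of all genes tested had one. The groups overlapped for all 10 members, and 0.09% of the genes tested had groups without overlap. The median log2 fold change of the 6 members was 0.07, with 4 higher in KO, and that of all genes tested was 0.00, with 50.7% higher. Tap2, H2-Aa, H2-Ab1 and H2-Eb1 fell under the filter and were tested by exact permutation, with 95% intervals from a fit without the filter.

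**Figure D2:**
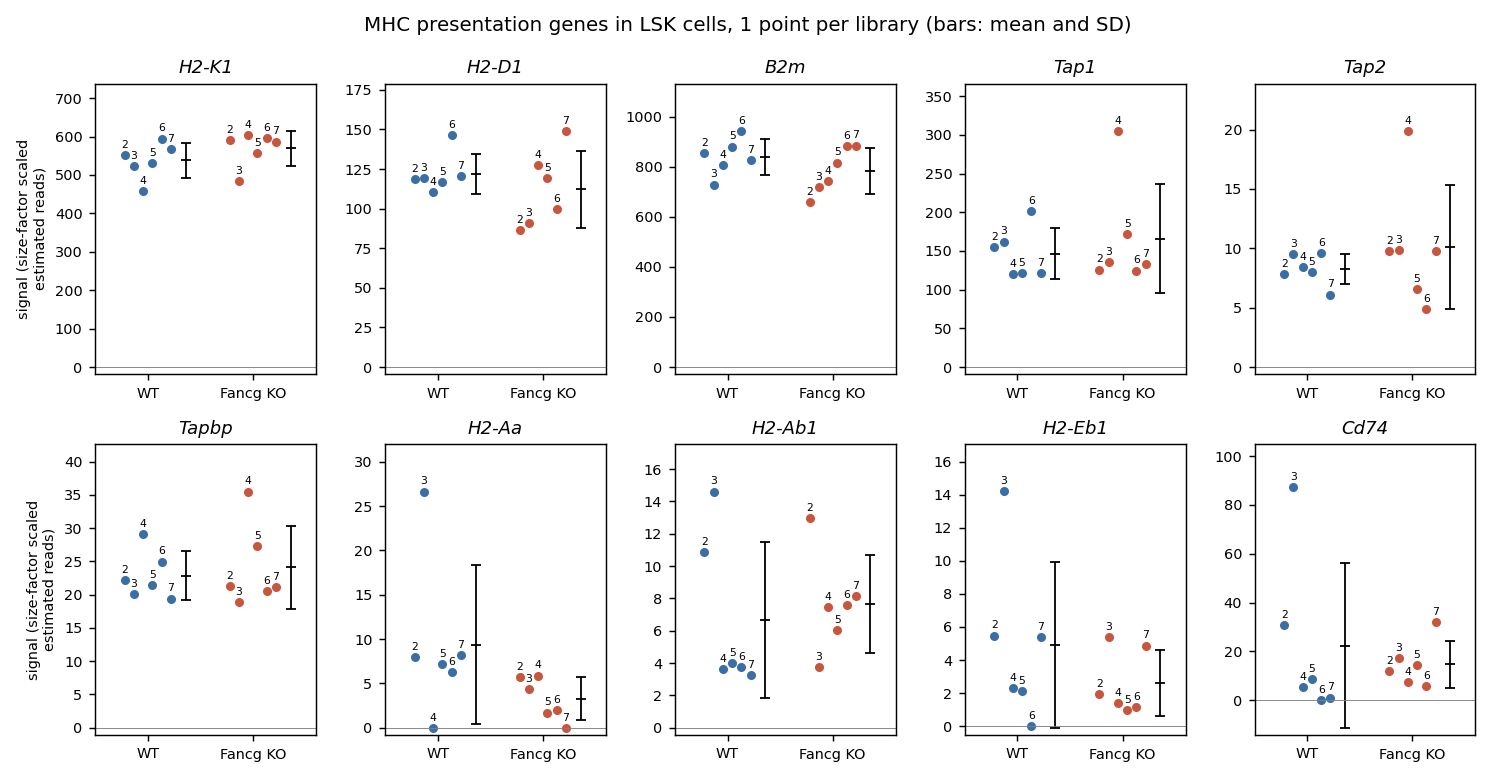
Signal of each member (vertical axes, size-factor scaled estimated reads) in WT and Fancg KO libraries (horizontal axes), with the replicate number at each point and the mean ± SD of 6 libraries as a bar. The groups overlap in all 10 panels, KO replicate 4 is highest for Tap1, Tap2 and Tapbp, and WT replicate 3 is highest for the 4 class II genes.

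H2-K1, a classical class I heavy chain, had a signal of 459 to 595 in WT (median 542) and of 483 to 605 in KO (median 589). The KO libraries lay within or just above the WT range, and the log2 fold change was 0.08 (95% interval -0.17 to 0.34, limma adjusted p = 0.9996). H2-D1, the other classical heavy chain, ran from 110 to 147 in WT (median 119) and from 86.5 to 149 in KO (median 110). Here 3 KO libraries were below every WT library and 1 was above all of them, with a log2 fold change of -0.14 (95% interval -0.46 to 0.18, adjusted p = 0.9996). B2m, the light chain that every class I molecule needs, ran from 729 to 943 in WT (median 840) and from 659 to 884 in KO (median 779). Its log2 fold change was -0.10 (95% interval -0.38 to 0.17, adjusted p = 0.9996). The intervals of these 3 genes hold no change beyond 0.46 on the log2 scale in either direction.

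Class I heavy chains resemble each other, and reads can be shared between them. Of the 31-base stretches of H2-K1 transcripts, 22.8% occur in other genes and 11.1% in H2-D1, while for B2m the share is 0%. The signal of all 32 class I heavy chain genes of the table was therefore summed, giving 1279 ± 96.1 (SD, n = 6) in WT and 1351 ± 162 (SD, n = 6) in KO, with a log2 fold change of 0.07 (95% interval -0.21 to 0.36, limma adjusted p = 0.9996). H2-K1 made up 42.0% ± 1.09 of this sum in WT and 42.4% ± 4.01 in KO, and H2-D1 9.54% ± 0.585 and 8.28% ± 1.30 (SD, n = 6 each).

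Of the peptide loading genes, Tap1 had a signal of 120 to 201 in WT (median 138) and of 125 to 305 in KO (median 134), with a log2 fold change of 0.12 (95% interval -0.34 to 0.58, limma adjusted p = 0.9996). Tap2, which pairs with Tap1 in the transporter, ran from 6.10 to 9.58 in WT (median 8.20) and from 4.86 to 19.9 in KO (median 9.76). The log2 fold change of Tap2 was 0.16 (95% interval -0.47 to 0.79, exact permutation p = 0.589). Tapbp ran from 19.4 to 29.1 in WT (median 21.8) and from 18.9 to 35.5 in KO (median 21.2), with a log2 fold change of 0.05 (95% interval -0.35 to 0.46, adjusted p = 0.9996). For all 3 genes the highest of the 12 libraries was KO replicate 4. Without KO replicate 4 the log2 fold changes turned to -0.07 for Tap1, -0.04 for Tap2 and -0.06 for Tapbp, none past the test. Tapbp shares 26.9% of its 31-base stretches with other genes, most of them with the gene model Gm19412, and Tap2 shares 14.3%, most of them with Gm15821.

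KO replicate 4, picked out after the values were seen, was high for class I genes beyond the members. Of the 26 tested genes of the class I pathway, 11 were highest in this library (42.3%), against 14.0% of all genes tested. Besides H2-K1, Tap1 and Tapbp these were the nonclassical heavy chains H2-Q6, H2-Q7, H2-T24 and H2-M3, the immunoproteasome subunits Psmb9 and Psmb10, the proteasome activator subunit Psme1 and the tapasin homolog Tapbpl. The count includes Tap1 and Tapbp, whose values were seen before KO replicate 4 was picked, so it is a description and not a test. KO replicate 4 exceeded the next library by a factor of 1.02 for H2-K1 and Psmb9, and by up to 1.66 for H2-T24. Psmb10 reached 51.4 there, against 14.3 to 31.9 in the other 11 libraries. B2m and H2-D1 were not highest in it. Other markers, picked after their values were seen, were also highest in KO replicate 4, namely the macrophage colony-stimulating factor receptor gene Csf1r with 70.3 (11.8 to 34.2 elsewhere), Nkg7 with 75.0 (29.2 to 56.8) and the B lineage factor Ebf1 with 288 (22.6 to 183). Of the other T and NK cell markers in KO replicate 4, Klrb1c was at 6.17, Cd3g at 1.06 and Cd4 at 0.390. Cd3e, Cd3d, Cd8a, Ncr1, Gzma and Trac were at 0. The 17 markers of dendritic cells and macrophages summed to 171 in this library, within the 46.7 to 174 of the other 11. The 10 B cell markers other than immunoglobulin genes summed to 299, above the 38.5 to 202 of the others. Ebf1 alone gave 288 of this 299, so the sum repeats its value and does not show the list as a whole raised. In KO replicate 4 Cd79b was at 8.79 and Cd79a at 2.34, and the rest of the 10 were at 0. The part of such cells in the high class I values was not tested.

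**Figure D3:**
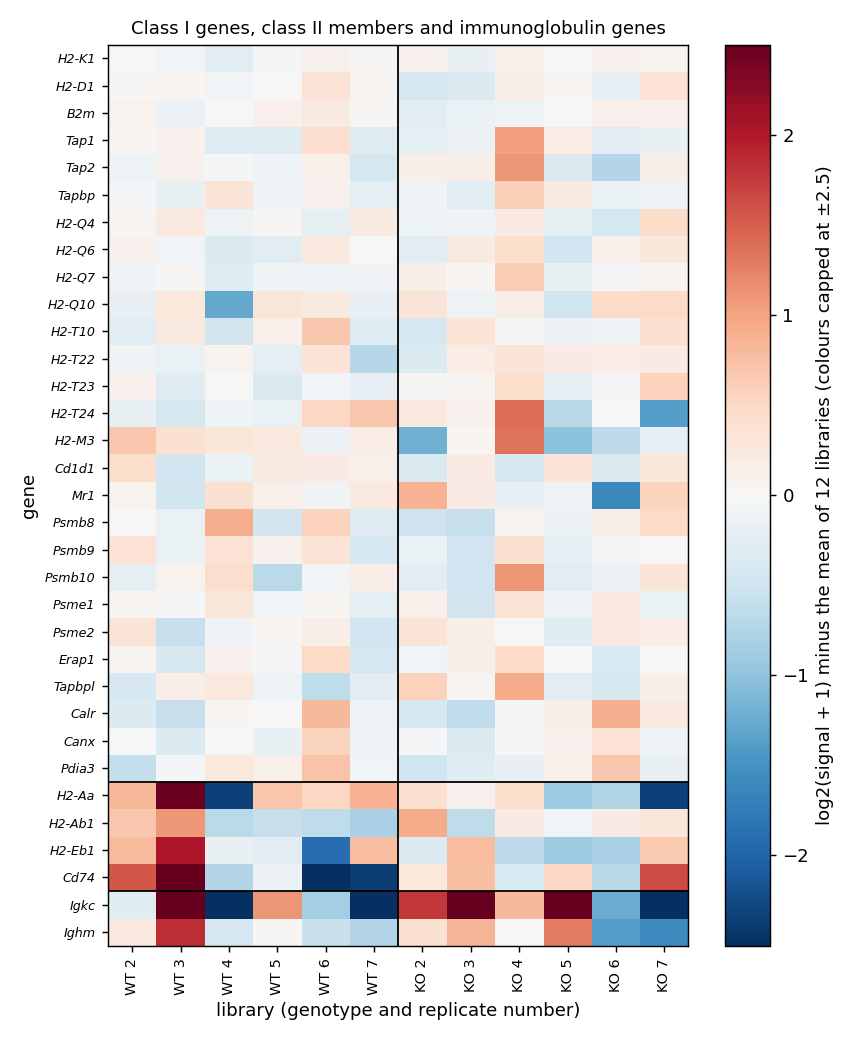
Deviation of log2(signal + 1) from the mean of the 12 libraries (colour, capped at 2.5 in either direction) for tested class I genes with Tap2, the 4 class II members and the immunoglobulin genes Igkc and Ighm (rows) in each library (columns, WT left and KO right). KO replicate 4 is red across many class I rows, and WT replicate 3 is red in all class II and immunoglobulin rows.

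Class II transcripts were low in LSK cells and varied far more between libraries than class I transcripts. H2-Aa, the alpha chain of I-A, ran from 0 to 26.6 in WT (median 7.58) and from 0 to 5.88 in KO (median 3.19), with a log2 fold change of -1.01 (95% interval -2.54 to 0.51, exact permutation p = 0.214). WT replicate 4 was at 0, while the other 5 WT libraries, from 6.23 upwards, were all above the highest KO library. Without WT replicate 4 the log2 fold change of H2-Aa was -1.58 (exact permutation p = 0.00866). Leaving out any other single library left the exact p above 0.05, and without WT replicate 3 and KO replicate 7 together the value was -0.26 (exact permutation p = 0.730). At this depth 4 of the 12 libraries held at most 3 reads of H2-Aa, so a 0 here allows a signal of up to 2.20 in WT replicate 4 and 4.82 in KO replicate 7 by counting error alone.

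H2-Ab1, the beta chain that pairs with the product of H2-Aa, ran from 3.24 to 14.6 in WT (median 3.87) and from 3.76 to 13.0 in KO (median 7.52). In contrast to H2-Aa its log2 fold change was above 0, with 0.31 (95% interval -0.55 to 1.17, exact permutation p = 0.418). H2-Eb1, the beta chain of I-E, ran from 0 to 14.2 in WT (median 3.85) and from 0.978 to 5.39 in KO (median 1.66), with a log2 fold change of -0.42 (95% interval -1.70 to 0.85, exact permutation p = 0.494). Leaving out WT replicate 3 moved H2-Ab1 to 0.56 and H2-Eb1 to -0.06. H2-Ab1 was at 0.48 without WT replicate 2, 0.47 without KO replicate 3, 0.20 without WT replicate 4, 0.18 without WT replicate 7 and 0.16 without KO replicate 2, and H2-Eb1 at -0.85 without WT replicate 6, none past the exact test. Cd74, the invariant chain, whose gene lies on chromosome 18 outside the MHC, ran from 0 to 87.3 in WT (median 7.12) and from 5.67 to 32.1 in KO (median 13.1). The mean signal of Cd74 was lower in KO (14.7 ± 9.53 against 22.2 ± 33.8, SD, n = 6 each) but its mean on the log2 scale was higher, by 0.69 (95% interval -1.14 to 2.52, limma adjusted p = 0.9996), since WT holds both the highest library and those nearest 0. Without WT replicate 3 this value was 1.37 and without WT replicate 6, where Cd74 was at 0, it was 0.07, neither past an unadjusted p of 0.05 in limma. The intervals of the 4 class II genes are wide, and each reaches beyond 1 on the log2 scale in at least 1 direction.

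WT replicate 3 was the highest of the 12 libraries for H2-Aa, H2-Ab1, H2-Eb1 and Cd74 alike. The 4 genes summed to 143 in this library and to between 9.99 and 55.0 in the other 11. The immunoglobulin genes Igkc and Ighm were also highest there, with a sum of 765 against 57.3 to 509. The defining B cell markers Cd79a and Ms4a1 were both at 1.15 in WT replicate 3, that is at 1 read each, and Cd79b was at 16.9, within the 8.46 to 19.9 of the other libraries. The 10 B cell markers other than immunoglobulin genes summed to 158, within the 38.5 to 299 of the others, and most of this sum was Ebf1 with 139. Over all libraries the 12 B cell markers summed to between 144 and 923 in WT and between 118 and 692 in KO, with 6 of the 12 at 0 in 6 or more libraries. The 17 markers of dendritic cells and macrophages summed to 88.6 in WT replicate 3, within the 46.7 to 174 of the other libraries, and over the groups to between 46.7 and 161 in WT and between 66.9 and 174 in KO, with 7 of the 17 at 0 in 6 or more libraries. The part of such cells in the class II signal was not tested, and in bulk libraries a change in the number of cells of a type cannot be told apart from a change in RNA per cell. Without WT replicate 3 the difference in the mean log2 signal of the 4 class II members moved from -0.11 to 0.31, and that of H2-K1, H2-D1 and B2m from -0.05 to -0.07.

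The rest of the pathway was followed in 5 lists. Of the other class I heavy chains, 11 of the 16 in the table were tested, of the genes of peptide supply and folding 10 of 10, of class II peptide loading and processing 6 of 13, and of the interferon gamma pathway 8 of 9. None of these genes had an unadjusted limma p under 0.05 in either direction, and 0 had an adjusted p under 0.05. The list medians of the log2 fold change were 0.00, 0.04, -0.03 and -0.04 in the same order, beside 0.00 for all genes tested. The immunoproteasome subunits, which cut peptides for class I molecules, gave log2 fold changes of -0.18 for Psmb8, -0.18 for Psmb9 and 0.08 for Psmb10, each with an adjusted p = 0.9996. The value for Psmb10 was -0.13 without KO replicate 4 and -0.04 without WT replicate 5.

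Over the 5 lists together, 2 of 42 tested genes (4.76%) had an unadjusted limma p under 0.05, near the 3.67% of all genes tested, and 0 passed after adjustment. Both are transcriptional regulators, a list with 7 genes tested, and 1 was higher and 1 lower in KO. Nlrc5, the class I transactivator, ran from 29.8 to 102 in WT (median 49.98) and from 54.8 to 162 in KO (median 76.3), with a log2 fold change of 0.71 (95% interval 0.07 to 1.35, limma p = 0.0320, adjusted p = 0.9996, exact permutation p = 0.0801). The groups overlapped. Nlrc5 kept an unadjusted limma p under 0.05 in 17 of 21 alternatives and lost it without WT replicate 4 (log2 fold change 0.56), without WT replicate 6 (0.56), without KO replicate 7 (0.52) and without WT replicate 3 and KO replicate 7 together (0.61). Rfxank, a subunit of the RFX complex that binds both class I and class II promoters, ran from 15.1 to 37.8 in WT (median 26.1) and from 3.37 to 19.3 in KO (median 14.1). Its log2 fold change was -0.97 (95% interval -1.71 to -0.24, limma p = 0.0131, adjusted p = 0.9996, exact permutation p = 0.0152), and the unadjusted p stayed under 0.05 in all 20 alternatives that tested it. With a replicate block in limma the unadjusted p was 0.00125 for Nlrc5 and 0.00327 for Rfxank, each with an adjusted p = 0.889. Ciita, the class II transactivator, had a mean signal of 6.27 in WT and 6.01 in KO, under the filter, and differed by -0.23 on the log2 scale (exact permutation p = 0.706). This value was -0.02 without WT replicate 3, 0.10 without KO replicate 6 and 0.07 without WT replicate 3 and KO replicate 7 together.

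**Figure D4:**
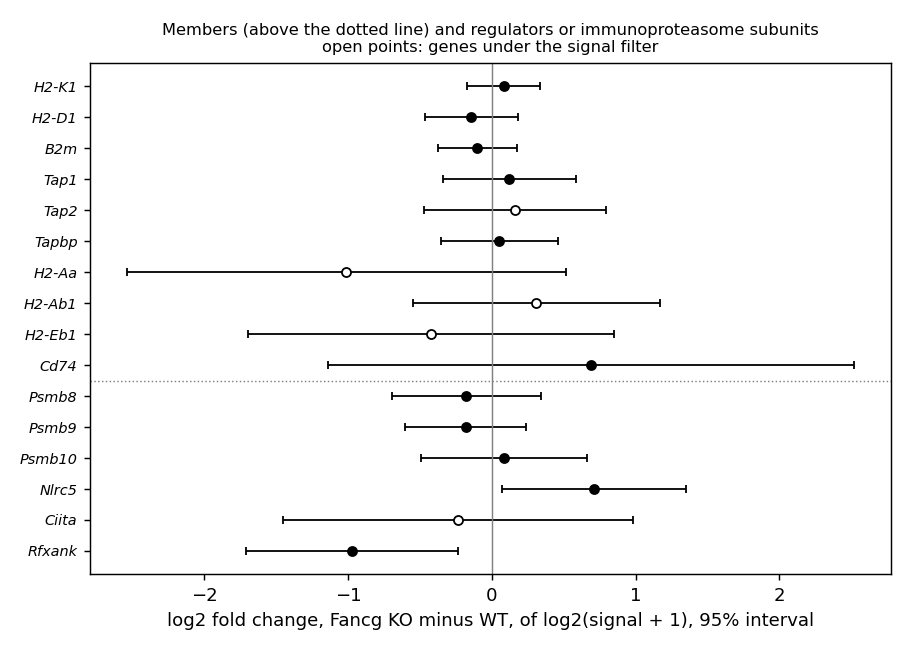
Log2 fold change, KO minus WT, of log2(signal + 1) with its 95% interval (horizontal axis) for the 10 members and 6 regulator or immunoproteasome genes (vertical axis), with open points for genes under the signal filter. The intervals of all 10 members include 0, those of the 4 class II genes are the widest among the 10 members, and those of Nlrc5 and Rfxank lie to either side of 0 before adjustment.

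No pair of members was correlated across mice of 1 genotype after adjustment. With the genotype means removed, the 3 pairs among H2-K1, H2-D1 and B2m had a mean Pearson r of 0.49, the 3 pairs among Tap1, Tap2 and Tapbp 0.65 and the 6 pairs of class II genes 0.47, while class II genes and the other members had a mean r of -0.12 over 24 pairs. Of all 45 pairs, 3 had a permutation p under 0.05 and 0 had one after Benjamini-Hochberg adjustment over the 45, or 1, H2-Eb1 and Cd74, without WT replicate 7. Tap1 and Tap2 had r = 0.71 (permutation p = 0.0444, adjusted p = 0.540) and Spearman's rho = 0.63 (permutation p = 0.0495, adjusted p = 0.446), and r was 0.16 without WT replicate 6 and KO replicate 4, the libraries farthest from the median. Tap1 and Tapbp had r = 0.70 (permutation p = 0.0368, adjusted p = 0.540) and rho = 0.40 (permutation p = 0.233, adjusted p = 0.749), with r = 0.22 without the same libraries. H2-Eb1 and Cd74 had r = 0.78 (permutation p = 0.0137, adjusted p = 0.540) and rho = 0.69 (permutation p = 0.0210, adjusted p = 0.432), with r = 0.36 without WT replicates 3 and 6. Leaving out the libraries farthest from the median of the first gene of a pair narrows its range, which can lower r by itself. The lower values therefore cannot show whether these 3 relations rest on the libraries left out.

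**Figure D5:**
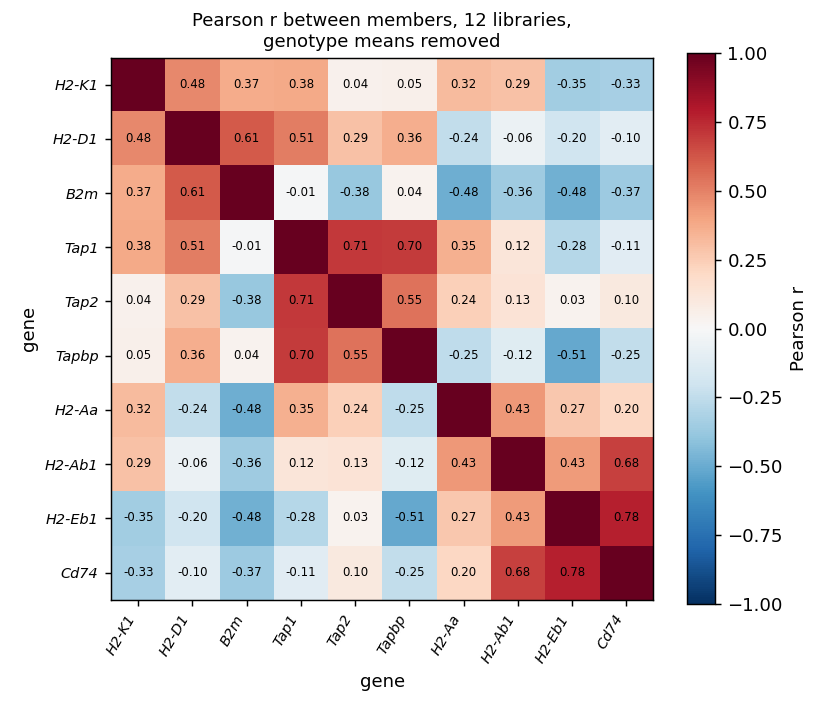
Pearson r (colour and number) between each pair of members (both axes) over 12 libraries with genotype means removed. The highest values are those of H2-Eb1 with Cd74 (0.78), Tap1 with Tap2 (0.71) and Tap1 with Tapbp (0.70), and no pair passes the adjustment over the 45 pairs.

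Genes whose pattern over the 12 libraries was most like that of the members are given as a description, out of 8881 genes compared and without a test. For the mean log2 signal of the class II members these included Bicd1 (r = 0.93), Pabpc4l (0.90), Pam (0.90) and Matk (0.90), and without WT replicate 3 their r ran from 0.73 to 0.88. For the mean of H2-K1, H2-D1 and B2m they were Psmb3 (r = 0.94), Cavin2 (0.92), Diaph2 (0.90), Ogfr (0.90) and Aurka (0.89). Psmb3 encodes a subunit of the proteasome, Aurka a mitotic kinase and Matk a kinase of blood cells.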

How the data were processed

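RNA-seq of LSK cells from 6 WT and 6 Fancg KO mice was analysed. The authors deposited 1 signal value for each gene in each library. By the name of the table and its values, this signal is the estimated count scaled by 1 size factor per library. The labels name kallisto, and the mouse build and annotation behind the table are not given in the sources used here. Each column was matched to a library by its title, and 0 columns were left unused. Depth was inferred by taking the commonest value above 0 in each library as the worth of 1 read, and is approximate. Limits from counts cover counting error only.

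The 8887 of 35999 genes whose signal averaged 10 or more were tested on log2(signal + 1) with limma 3.58.1 in R 4.3.3 (trend, two-sided, Benjamini-Hochberg adjustment, no covariate). This scale understates the change of low genes. Members were also tested by exact permutation, two-sided. Correlations used 100000 permutations within genotype. The fit was tested on simulated data. Levels per kb used the longest coding transcript of GENCODE for GRCm38, where 35929 gene names matched. Alternatives were other pseudocounts, filters and scalings, no trend, a replicate block and libraries left out.

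The members, gene lists and alternatives were chosen with earlier results of these data known. Named genes are the members, pathway genes with an unadjusted p under 0.05, Nlrc5, Ciita, Psmb8, Psmb9, Psmb10, the 5 genes most like the class I and the class II members, and markers. Some results under this rule are not given. Same-numbered animals are not stated to be littermates.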

Additional observations from a re-analysis of the deposited data

Results flagged for a closer look

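Dixon's criterion was applied to 36 sets of 6 libraries of 1 genotype, to find values far from the other 5. It picked out 8, where chance gives about 1.8 if the values are normal and the sets independent. The criterion was applied to the signal without a log, and some sets share libraries and genes. The 8 are therefore a list of values to look at and not an excess that was tested.

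KO replicate 4 gave 3 of these values, with 305 for Tap1 (125 to 171 in the other KO libraries), 19.9 for Tap2 (4.86 to 9.88) and 51.4 for Psmb10 (16.2 to 29.3). WT replicate 3 gave another 3, with 26.6 for H2-Aa (0 to 8.23 in the other WT libraries), 87.3 for Cd74 (0 to 30.7) and 143 for the sum of the 4 class II members (9.99 to 55.0), which contains the other 2 values. H2-D1 reached 147 in WT replicate 6, while the other WT libraries held 110 to 121, and its log2 fold change was -0.09 without that library. Nlrc5 reached 162 in KO replicate 7, while the other KO libraries held 54.8 to 83.5, and its log2 fold change was 0.52 without that library.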

How the results depend on the processing

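The counts of 0 members past an adjusted and 0 past an unadjusted limma p of 0.05 were the same under every alternative tried. These counts cover the 6 members above the filter, 4 at a mean signal of at least 50, and all 10 in limma without a filter. Members under the filter were otherwise tested by exact permutation and are not in these counts. Of 194 member fold changes under alternatives, 193 stayed on the same side of the threshold and 1, H2-Aa without WT replicate 4, passed it. The sign of a value that passed no test changed for Tap1, Tap2 and Tapbp without KO replicate 4, for Psmb10 without KO replicate 4 or WT replicate 5, and for Ciita without KO replicate 6 or both libraries low in Y-linked transcripts. Of 119 alternatives for the regulator and immunoproteasome genes named, 4 lost an unadjusted p under 0.05, all for Nlrc5. The number of member pairs correlated past an adjusted p of 0.05 ran from 0 to 1 as each library was left out, with 1 pair (H2-Eb1 and Cd74) without WT replicate 7, and the cause was not tested. The class I mean difference ran from -0.12 to -0.01, and the class II one from -0.39 to 0.31, over all alternatives. WT and KO share replicate numbers 2 to 7, but the numbers did not meet the rule for pairs. Same-numbered libraries had correlations of 0.09 to 0.36 (above 0.1 in 4 of 6), with a mean of 0.20 against -0.04 for other pairings. In 4 of 6 numbers both libraries correlated best with each other across the genotypes, so a pairing was not excluded. The replicate block raised the number of genes at an unadjusted p under 0.05 from 326 to 476, and 0 passed after adjustment. Of the 6 members tested with the block, 0 passed either threshold, with a class II mean difference of -0.11 and a class I one of -0.05. Depth limits the class II genes most, for which 2 to 5 of the 12 libraries had at most 3 reads. Other filters have no value for the class means, which take all their members, and filters, trend and block have none for members tested by permutation alone.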

Other observations

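The following values were picked after they were seen. Jak1, a kinase of the interferon receptors, had a signal of 29.4 to 38.3 in WT and 25.6 to 30.3 in KO, a log2 fold change of -0.21 with an exact permutation p = 0.0108, while limma gave p = 0.168 and an adjusted p = 0.9996. The endosomal protease gene Lgmn, of the class II processing list, ran from 83.8 to 286 in the 8 libraries with replicate numbers 2 to 5 and from 25.4 to 57.0 in the 4 with numbers 6 and 7, in both genotypes. Ebf1 was split the same way, at 82.0 to 288 and 22.6 to 41.0. The labels give no batch for these numbers.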
